A study of Mus musculus with 96 samples.

Results

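Trophectoderm genes were examined in mouse embryonic stem cells (ESCs) in which the Polycomb protein RYBP or its partners had been perturbed. The members were 8 transcription factor genes, Cdx2, Gata2, Gata3, Tfap2a, Tfap2c, Elf5, Hand1 and Tead4, chosen by name among the 37620 genes of each count table, and all 8 were found by their Ensembl identifiers. RNA was measured in 7 separate count tables, each with 2 control and 2 perturbed libraries. In R7.15 cells, which carry a floxed Rybp gene, Rybp-/- cells had received 5 µM 4-hydroxytamoxifen (4-OHT) for 4 days and were compared with the untreated Rybp+/+ cells. In R1 cells, shRybp and shWdr5 knockdowns were compared with the same shEV (empty vector) libraries, and a line with a mutation labelled TF-AA, which the labels do not explain, was compared with WT ESC. Another pair of lines on the RYBPfl/fl Rosa26::CreERT2 background was given 4-OHT in both arms, which targets the floxed gene in both, and carried either an overexpressed WT RYBP (WT.RYBP) or RYBP with a deletion labelled 21aa (RYBP phase disruption). All were grown in serum with LIF. In J1 cells a Tet-on RYBP transgene was induced with doxycycline (DOX) or left with vehicle. In rTRS cells, which hold a DOX-inducible Rybp_Stat3 integration, DOX was compared with the uninduced NTC libraries. Chromatin was covered by 14 peak lists: H3K4me3, H3K27ac, WDR5 and STAT3 in Rybp+/+ and Rybp-/- cells, RING1B in shEV and shStat3 R1 cells, and RING1B and STAT3 in Tet.Rybp.Stat3 cells (labelled R1) without and with DOX.

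The trophectoderm is the outer layer of the blastocyst and gives rise to the placenta, whereas ESCs derive from the inner cell mass and normally keep this programme silent. TEAD4, the DNA-binding partner of the Hippo effector YAP, acts at the top of the programme. CDX2 and GATA3 specify the layer, TFAP2C and TFAP2A are AP-2 factors of trophoblast, ELF5 helps to maintain trophoblast stem cells, GATA2 acts in trophoblast and HAND1 drives formation of giant cells. RYBP is a subunit of variant PRC1, the Polycomb complex in which RING1B places ubiquitin on histone H2A. WDR5 is a core subunit of the Trithorax-type complexes that methylate H3K4, and STAT3 carries the LIF signal that maintains mouse ESCs.

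The tables held 14512857 to 81049618 reads on genes per library, and the perturbed genes were checked first. Rybp fell to 0.23-fold in Rybp-/- cells and to 0.42-fold in shRybp cells, Wdr5 fell to 0.17-fold in shWdr5 cells, and Rybp rose 3.77-fold with DOX in the Tet-on RYBP cells. These perturbations were not separate: Rybp rose 1.47-fold in shWdr5 cells. Wdr5 was also called lower in shRybp (0.71-fold), rTRS (0.77-fold), phase disruption (0.85-fold) and Rybp-/- cells (0.91-fold). In rTRS cells the libraries labelled DOX did not show more Rybp reads (mean 100.8 CPM against 111.9 CPM, fold 0.90, adjusted p = 0.0762), and Stat3 rose 1.15-fold, so these counts do not check the induction of the construct, whose sequence is not given in the sources used here. Rybp reads, which may come from the transgene, stood at 749.3 and 753.5 CPM in WT.RYBP and 661.6 and 626.3 CPM in phase disruption libraries (0.86-fold). CPM is the read count of a gene relative to the reads on all genes of its library, scaled by edgeR's TMM factors. Pluripotency marker genes were detected in every library, at a summed 3466 to 7907 CPM over 10 genes. Nothing in the labels says that the 2 libraries of a group came from separate cultures, so p-values measure only the spread between these libraries.

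In the control ESCs the members spanned a wide range of expression. On a per-length scale (CPM per kb of gene model, RPKM), the control mean of Tfap2c ran from 6.35 to 32.4 over the 7 tables, that of Tead4 from 3.83 to 10.4 and that of Gata2 from 0.50 to 2.28. Hand1 lay between 0.11 and 1.55, Tfap2a between 0.27 and 1.44, Cdx2 between 0.011 and 0.50, Gata3 between 0.025 and 0.33 and Elf5 between 0 and 0.034 RPKM. Tfap2c was the highest member in 5 of the 7 tables. In the TF-AA table Tead4 stood above Tfap2c (10.5 and 10.3 RPKM against 9.01 and 9.51 in WT ESC), as it did in the Tet-on RYBP table (9.03 and 8.52 against 6.82 and 5.89 with vehicle), and the libraries did not overlap in either. In the shEV libraries the order ran from Tfap2c through Tead4, Gata2 and Tfap2a to Cdx2 (0.35 and 0.52 RPKM), Hand1 (0.54 and 0.29) and Gata3 (0.38 and 0.27), and ended with Elf5. Cdx2, Hand1 and Gata3 overlapped there and could not be ordered, and Gata3 stood above Cdx2 in Rybp+/+ libraries (0.099 and 0.11 against 0.011 and 0.011). The tables were normalised separately, so levels are comparable within a table.

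**Figure D1:**
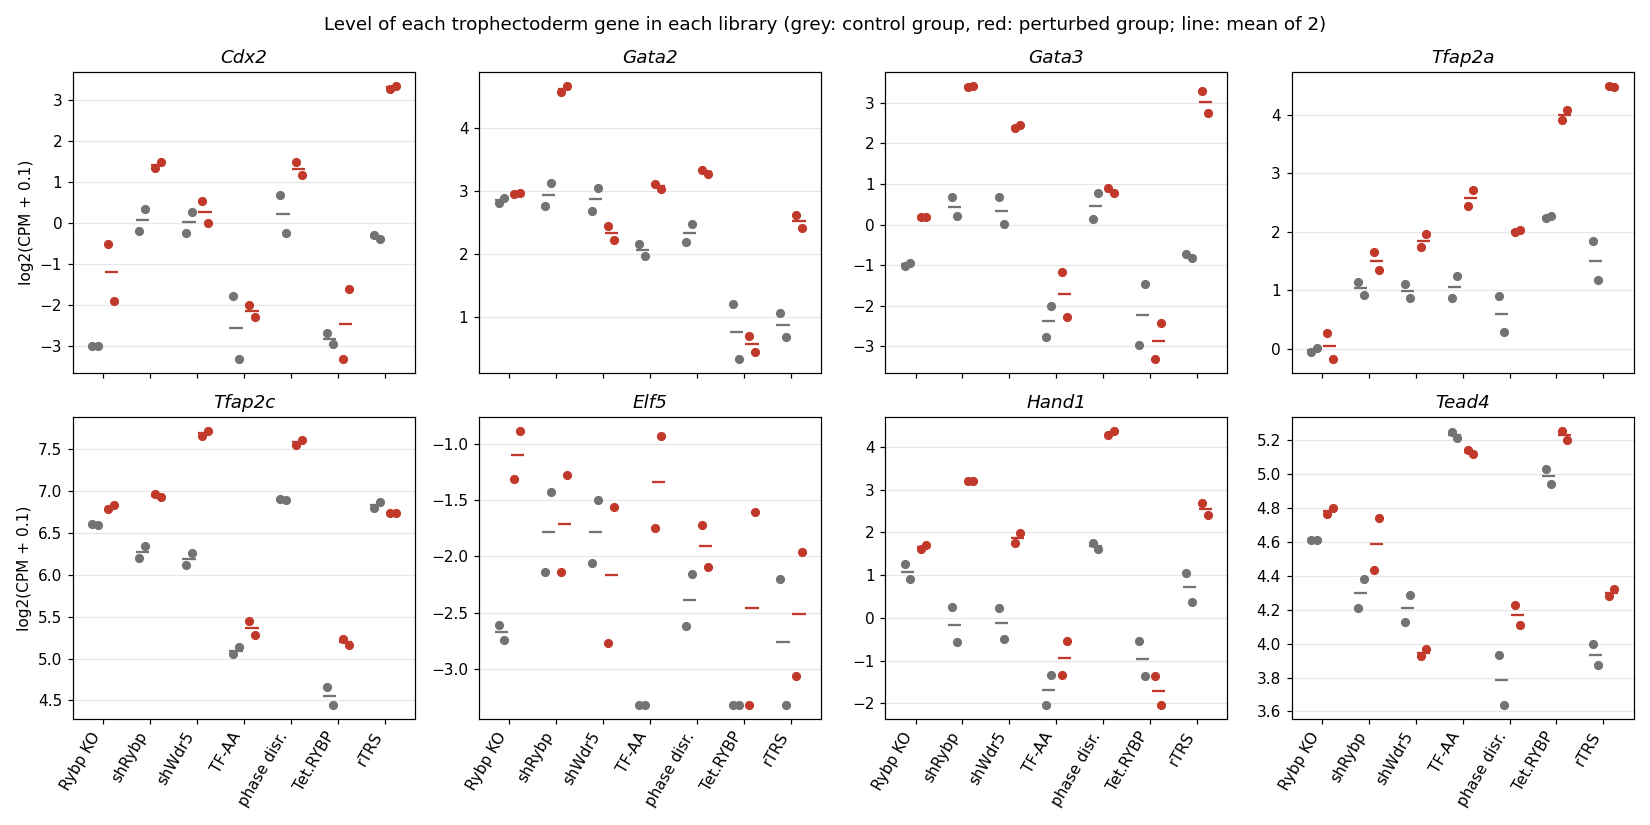
Level of each gene in each library, as log2(CPM + 0.1) on the vertical axis, with the 7 comparisons on the horizontal axis; points are libraries (grey, control; red, perturbed) and lines the mean of 2. Hand1 reaches 19.3 and 20.6 CPM in the phase disruption libraries against 3.27 and 2.93 CPM in WT.RYBP.

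Most of the members that could be tested rose in Rybp-/-, shRybp and phase disruption cells and, in rTRS cells, after DOX (edgeR quasi-likelihood test, adjusted p under 0.05 over all genes tested). In Rybp-/- cells 6 of 8 members rose and 0 fell, against 22.8% of all 16955 tested genes that rose and 22.7% that fell. In shRybp cells 6 of 8 rose and 0 fell, against 26.8% and 26% of 16538 genes. In phase disruption cells 6 of 7 tested members rose and 0 fell, against 16.1% and 17% of 14575 genes. In rTRS cells given DOX 6 of 7 rose and 0 fell, against 23% and 20.4% of 16291 genes. In shWdr5 cells 4 of 7 rose and 2 fell, against 31.5% of 15143 genes in each direction. In the TF-AA mutant 3 of 4 tested members rose and 0 fell, against 14.4% and 16.1% of 14456 genes. After RYBP induction in J1 cells 2 of 5 rose and 0 fell, against 3.63% and 2.39% of 14937 genes.

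Members below the low-count filter were Elf5 in 5 tables, Cdx2 and Gata3 in the TF-AA and Tet-on tables and Hand1 in the TF-AA table, and a member that passed only through its higher group had to differ, so these counts are a description. Cdx2 and Elf5 are such members among the 6 that were called in Rybp-/- cells. The others called there were Gata3, Tfap2c, Hand1 and Tead4. The median log2 fold change of the tested members was 0.40 in Rybp-/-, 1.04 in shRybp, 0.89 in shWdr5, 0.65 in TF-AA, 0.97 in phase disruption, 0.24 in Tet-on RYBP and 1.87 in rTRS cells, and the median over all genes tested stayed between -0.01 and 0.02 in the 7 tables. The shRybp and shWdr5 comparisons share their shEV libraries. Without replicate 2 of Rybp-/-, 3 members were called in Rybp-/- cells in place of 6. In bulk RNA, more cells that express a gene and more RNA per cell cannot be told apart.

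**Figure D2:**
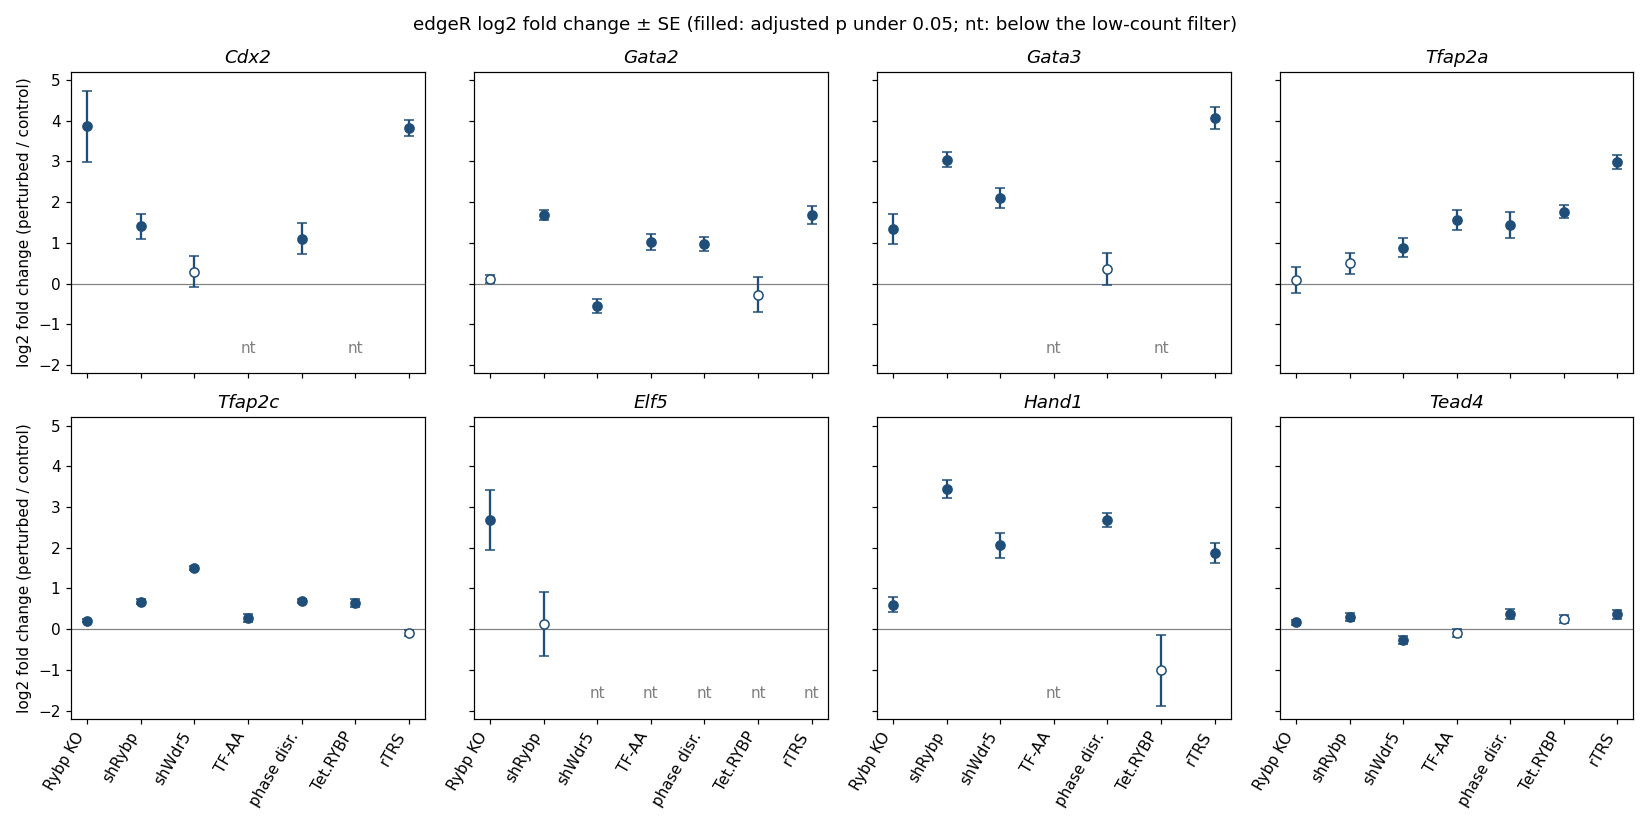
edgeR log2 fold change (vertical axis, perturbed over control) with its SE for each gene and comparison (horizontal axis); filled points passed an adjusted p of 0.05, and nt marks genes below the low-count filter. Gata3 (4.07) and Cdx2 (3.83) are highest in rTRS cells, and Gata2 and Tead4 lie below 0 in shWdr5 cells.

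Tead4, the gene of the TEAD factor at the head of the programme, moved little wherever it was called. It rose in 4 comparisons, by 0.17 ± 0.06 (log2, SE) in Rybp-/-, 0.30 ± 0.10 in shRybp, 0.38 ± 0.13 in phase disruption and 0.37 ± 0.11 in rTRS cells, and fell by 0.26 ± 0.10 in shWdr5 cells (adjusted p from 0.0144 to 0.0252). The shEV libraries held 18.4 and 20.7 CPM of Tead4, the shRybp libraries 21.5 and 26.6 CPM, and the groups did not overlap. In rTRS cells the level went from 15.8 and 14.6 CPM to 19.3 and 19.9 CPM. These calls were not stable: in Rybp-/- cells the call was lost without any 1 of the 4 libraries (log2 0.15 to 0.19, adjusted p from 0.0602 to 0.150). It was also lost in shRybp cells without shEV replicate 1 (0.21) or shRybp replicate 2 (0.14), in shWdr5 cells without shEV replicate 2 (-0.18) or shWdr5 replicate 1 (-0.24), in phase disruption cells without WT.RYBP replicate 2 (0.23) or disruption replicate 1 (0.32), and in rTRS cells without NTC replicate 2 (0.31). DESeq2 did not call Tead4 in Rybp-/-, shRybp, shWdr5 or phase disruption cells (adjusted p from 0.0837 to 0.209). In the TF-AA mutant Tead4 was at -0.10 ± 0.10 (adjusted p = 0.474) and after RYBP induction at 0.24 ± 0.10 (adjusted p = 0.146).

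Cdx2, the homeobox gene that commits cells to the trophectoderm, was called higher in 4 of the 5 comparisons in which it could be tested. Of these calls, that in Rybp-/- cells depended on the low-count filter and that in phase disruption cells was not stable, as given below. In rTRS cells it held 0.72 and 0.67 CPM without DOX and 9.65 and 10.2 CPM with DOX. The fold change was 14.2 (log2 3.83 ± 0.20, adjusted p = 1.42e-08). In shRybp cells Cdx2 went from 0.78 and 1.17 CPM to 2.46 and 2.70 CPM (2.65-fold, log2 1.40 ± 0.30, adjusted p = 0.000728). In shWdr5 cells, set against the same shEV libraries, it held 1.36 and 0.91 CPM and the groups overlapped (log2 0.29 ± 0.39, adjusted p = 0.524).

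Rybp-/- cells had very few Cdx2 reads, and the replicates differed. The Rybp+/+ libraries held 2 and 2 reads and the Rybp-/- libraries 46 and 13, or 0.60 and 0.17 CPM. The ratio of summed counts was 15.6, with a 95% exact interval of 5.77 to 59.1 that covers counting error only. Cdx2 passed the low-count filter here only through the Rybp-/- libraries, so its adjusted p of 0.000495 (edgeR, log2 3.86 ± 0.88) is no independent support, and without the filter it was 0.0091. Without Rybp-/- replicate 1 the value was 2.67 with an adjusted p of 0.151. In phase disruption cells Cdx2 went from 1.51 and 0.75 CPM to 2.72 and 2.15 CPM (log2 1.10 ± 0.39, adjusted p = 0.0262). That call was lost without WT.RYBP replicate 2 (0.68), disruption replicate 1 (0.92) or disruption replicate 2 (1.26), the value was 1.68 without WT.RYBP replicate 1, and neither DESeq2 (adjusted p = 0.214) nor edgeR without the low-count filter (0.0991) made the call. In the TF-AA and Tet-on tables no library held more than 8 Cdx2 reads.

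Gata3, a second specifier of the layer, rose in Rybp-/-, shRybp, shWdr5 and rTRS cells. Without DOX the rTRS libraries held 0.51 and 0.47 CPM, and with DOX 9.76 and 6.68 CPM. This was the highest estimate of any member in that table, within its error of that of Cdx2 (16.8-fold, log2 4.07 ± 0.27, adjusted p = 1.04e-07). In shRybp cells Gata3 went from 1.49 and 1.06 CPM to 10.5 and 10.7 CPM (8.23-fold, log2 3.04 ± 0.19, adjusted p = 1.62e-10), and in shWdr5 cells to 5.09 and 5.38 CPM (4.30-fold, log2 2.1 ± 0.24, adjusted p = 9.91e-08). Rybp-/- cells held 1.04 and 1.04 CPM against 0.39 and 0.42 CPM (2.54-fold, adjusted p = 0.00347). In phase disruption cells the groups overlapped (log2 0.36 ± 0.40, adjusted p = 0.532). The gene model overlaps 4930412O13Rik and Gm13256 on the opposite strand and 9230102O04Rik on the same strand. The strand setting of the counting is not given in the sources used here. Whether reads in these overlaps were counted for Gata3 or set aside as ambiguous is therefore not known.

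Gata2, which encodes a related GATA factor, was called with Gata3 in shRybp, rTRS and, in the opposite direction, shWdr5 cells, and without it in phase disruption cells. It was also called in TF-AA cells, where Gata3 lay below the low-count filter and was not tested. It rose in shRybp cells from 6.70 and 8.59 CPM to 23.6 and 25.4 CPM (3.21-fold, log2 1.68 ± 0.11, adjusted p = 6.71e-10). It also rose in rTRS cells from 2.00 and 1.51 CPM to 6.07 and 5.22 CPM (3.22-fold), in TF-AA cells from 4.39 and 3.80 CPM to 8.55 and 8.11 CPM (2.03-fold) and in phase disruption cells from 4.47 and 5.49 CPM to 9.98 and 9.55 CPM (log2 0.97), with adjusted p from 5.57e-05 to 0.000177. The Rybp-/- libraries held 7.68 and 7.74 CPM against 6.93 and 7.31 CPM (log2 0.11 ± 0.11, adjusted p = 0.419). Knockdown of Wdr5 lowered it from 6.36 and 8.20 CPM to 5.37 and 4.56 CPM (log2 -0.55 ± 0.17, adjusted p = 0.00662). That call was lost without shEV replicate 2 (-0.36) or shWdr5 replicate 2 (-0.43) and under DESeq2 (adjusted p = 0.0931).

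Tfap2a, an AP-2 factor gene, had the higher estimate of the 2 members that rose when RYBP itself was induced. Vehicle-treated J1 cells held 4.60 and 4.72 CPM and DOX-treated cells 15.0 and 16.8 CPM. The fold change was 3.41 (log2 1.77 ± 0.16, adjusted p = 2.39e-09). In rTRS cells Tfap2a went from 3.46 and 2.16 CPM to 22.5 and 22.1 CPM (7.94-fold, log2 2.99 ± 0.18, adjusted p = 4.42e-08). The TF-AA mutant held 5.32 and 6.46 CPM against 1.72 and 2.27 CPM (2.94-fold, adjusted p = 2.88e-05), and phase disruption cells 3.87 and 3.97 CPM against 1.76 and 1.12 CPM (2.71-fold, adjusted p = 0.000494). It also rose in shWdr5 cells (1.85-fold, adjusted p = 0.0026), a call that DESeq2 did not make (adjusted p = 0.0528). The Rybp-/- and shRybp comparisons gave no call for it. The values were 1.10 and 0.78 CPM against 0.87 and 0.91 CPM in Rybp-/- cells, which overlapped, and 3.04 and 2.45 CPM against 2.1 and 1.79 CPM in shRybp cells (log2 0.50 ± 0.25, adjusted p = 0.107). The lincRNA Gm16989 overlaps this gene on the opposite strand.

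Tfap2c, the AP-2 gene that ESCs already express, rose in 6 of 7 comparisons. Its highest change was in shWdr5 cells, from 69.6 and 76.8 CPM to 202 and 211 CPM (2.82-fold, log2 1.5 ± 0.06, adjusted p = 1.9e-16). In phase disruption cells the level went from 119.5 and 118.7 CPM to 188 and 195 CPM (1.61-fold, adjusted p = 9.5e-13). shRybp cells held 125 and 122 CPM against 73.6 and 81.1 CPM (1.59-fold, adjusted p = 1.35e-08), and J1 cells with induced RYBP held 37.4 and 35.8 CPM against 25.1 and 21.7 CPM (1.56-fold, adjusted p = 8.35e-05). The change in Rybp-/- cells was small, 110 and 114 CPM against 97.4 and 96.7 CPM (1.15-fold, adjusted p = 4.25e-05). In TF-AA cells the call (log2 0.27 ± 0.10, adjusted p = 0.0407) was lost without WT ESC replicate 1 (0.23), TF-AA replicate 1 (0.19) or TF-AA replicate 2 (0.35), without the low-count filter (adjusted p = 0.0658) and under DESeq2 (adjusted p = 0.176). rTRS cells held 107 and 106 CPM with DOX and 112 and 117 CPM without (log2 -0.10 ± 0.07, adjusted p = 0.257).

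Elf5, the ETS factor gene of the trophoblast stem cell state, stayed near the limit of detection everywhere. It could be tested in 2 tables. Rybp+/+ libraries held 5 and 4 reads and Rybp-/- libraries 23 and 34 reads, a ratio of 6.69 (95% exact interval 3.29 to 15.4, counting error only), and edgeR gave log2 2.68 ± 0.73. Elf5 passed the low-count filter only through the Rybp-/- libraries, so its adjusted p of 0.00284 is no independent support, and without the filter it was 0.0136. Without Rybp-/- replicate 2 the value was 2.38 with an adjusted p of 0.0915. The shRybp libraries held 0.13 and 0.31 CPM against 0.13 and 0.27 CPM in shEV, which overlapped (adjusted p = 0.912). In the TF-AA table WT ESC held 0 and 0 reads and the mutant 4 and 8 reads, a ratio of 4.35 if the control is set at a floor of 3 counts over the group. This ratio takes the mutant reads as exact, so it is no lower bound. The TF-AA difference was below the filter and has no test.

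Hand1, the basic helix-loop-helix factor gene of giant cells, had the highest estimated fold change of the tested members after Rybp knockdown and in phase disruption cells. In shRybp cells it went from 1.09 and 0.57 CPM to 9.10 and 9.16 CPM (10.9-fold, log2 3.44 ± 0.23, adjusted p = 4.54e-10). Phase disruption cells held 19.3 and 20.6 CPM against 3.27 and 2.93 CPM (6.41-fold, log2 2.68 ± 0.16, adjusted p = 5.77e-15). The groups were far apart in both. It rose 4.16-fold in shWdr5 cells, to 3.27 and 3.84 CPM, and 3.65-fold in rTRS cells, from 1.98 and 1.19 CPM to 6.34 and 5.2 CPM (adjusted p = 2.75e-06 and 7.28e-05). The rise in Rybp-/- cells was 1.52-fold, from 2.28 and 1.78 CPM to 2.97 and 3.18 CPM (adjusted p = 0.0088). That call was lost without Rybp+/+ replicate 2 (log2 0.43) or Rybp-/- replicate 2 (0.55) and under DESeq2 (adjusted p = 0.0542). After RYBP induction in J1 cells Hand1 stood at 0.29 and 0.14 CPM against 0.58 and 0.29 CPM (log2 -1.02 ± 0.87, adjusted p = 0.594).

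The 4 members tested in all 7 tables were set beside every other gene with a mean of at least 1 CPM in each table, by Pearson correlation of the 7 log2 fold changes. The genes most alike were Ubtd2 and Phox2a for Gata2 (r = 0.98 and 0.96 among 11614 genes), 2510002D24Rik and Man2c1 for Tfap2a (0.98 and 0.97), Hdac6 and Sp1 for Tfap2c (0.98 and 0.98) and Miip and Sgtb for Tead4 (0.98 and 0.98). With 7 points, of which the shRybp and shWdr5 values share shEV libraries, such values describe a shape and not a size. The log2 fold changes of Hdac6, for instance, ran from -0.35 in rTRS to 1.24 in shWdr5 cells.

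Other trophectoderm and trophoblast stem cell genes, a list of 25, had their highest medians in shRybp and rTRS cells. In shRybp cells 17 of 24 tested genes rose and 2 fell, with a median log2 fold change of 1.59 against 0.02 for all genes tested, and in rTRS cells 15 rose and 5 fell (median 1.04). Rybp-/- cells had 14 of 24 higher and 4 lower (0.38), in shWdr5 cells 13 rose and 5 fell (0.42), in phase disruption cells 11 of 23 rose and 5 fell (0.14), and in TF-AA cells 10 of 24 rose and 7 fell (0.11). RYBP induction in J1 cells raised 4 of 21 and lowered 0 (-0.06). Over all genes tested, 26.8% rose and 26% fell in shRybp, 23% and 20.4% in rTRS, 22.8% and 22.7% in Rybp-/- and 31.5% and 31.5% in shWdr5 cells. The shares were 16.1% and 17% in phase disruption, 14.4% and 16.1% in TF-AA and 3.63% and 2.39% in Tet-on RYBP cells. They apply to each list below, and a count near its share is no trait of a list. Krt7, a simple epithelial keratin of trophoblast, rose by a log2 of 2.41 in shRybp, 3.69 in shWdr5, 2.49 in rTRS, 1.58 in phase disruption and 0.84 in Rybp-/- cells. In TF-AA cells Krt7 was called higher on a control mean of only 0.025 CPM against 2.61 CPM, too few control reads to give a size. Wnt7b, which encodes a Wnt ligand of the placenta, rose in 6 comparisons, by 3.24 in shRybp, 2.6 in shWdr5, 2.26 in rTRS, 1.72 in Tet-on RYBP, 1.24 in phase disruption and 0.93 in Rybp-/- cells. The tight junction genes Cldn4 and Cldn6 rose in shRybp (1.55 and 1.80), shWdr5 (1.15 and 0.90), rTRS (1.54 and 2.1) and J1 cells (0.56 and 0.59), whereas Cldn4 rose in Rybp-/- (0.21) and fell in TF-AA cells (-0.92) and Cldn6 fell in Rybp-/- (-0.17) and phase disruption cells (-0.19).

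Of 20 differentiated trophoblast genes, 6 to 11 passed the low-count filter and 5 to 11 were at 0 in a group, Tpbpa and the placental prolactin gene Prl3b1 in each of them. The summed level of the list went from 1072 to 1154 CPM without DOX to 4151 to 4575 CPM with DOX in rTRS cells. A sum follows its most abundant genes: the median fold change of the 9 tested genes there was 1.60, and 8 of 20 genes were at 0 with DOX. Of the genes named below, Cdkn1c went from a mean of 18.4 to 29.5 CPM and Dlx3 from 4.15 to 11.2 CPM, while Tfpi and Phlda2 did not rise. Most of the rise of the sum therefore came from genes not named here. Of the genes tested, 7 of 10 rose and 0 fell in phase disruption cells, 5 of 11 rose and 0 fell in Rybp-/- cells, 5 of 9 rose and 2 fell in shRybp cells, 6 of 9 rose and 2 fell in shWdr5 cells and 5 of 9 rose and 1 fell in rTRS cells. In TF-AA cells 2 of 6 rose and 0 fell, and in J1 cells with induced RYBP 1 of 7 rose and 0 fell. Dlx3, a homeobox gene of the placental labyrinth, rose by a log2 of 2.96 in both shRybp and shWdr5 cells, 1.44 in rTRS, 1.42 in phase disruption and 1.33 in Rybp-/- cells. The imprinted growth-restricting gene Phlda2 fell in shRybp (-1.19) and shWdr5 cells (-1.97) and rose in Rybp-/- (0.44), phase disruption (0.49) and J1 cells (0.42). Cdkn1c, an imprinted inhibitor of the cell cycle, rose in 5 comparisons (0.57 to 1.19) and fell in shWdr5 cells (-0.37), and Tfpi, an inhibitor of coagulation, rose in 4 comparisons (0.39 to 1.53) and fell in rTRS cells (-0.49).

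Genes of the Hippo pathway, which controls YAP and TEAD4, were all tested (19). In shRybp cells 12 rose and 5 fell, in rTRS cells 11 rose and 1 fell, in shWdr5 cells 10 rose and 3 fell, in Rybp-/- cells 9 rose and 7 fell, in phase disruption cells 4 rose and 6 fell and in TF-AA cells 3 rose and 5 fell. Some of these counts lie near the shares of all genes tested, such as the 5 that fell in shRybp cells (26% of all) and the 3 that rose in TF-AA cells (14.4%). In Tet-on RYBP cells the edgeR test called 0 of 19 in either direction. Ccn1, a well known target of YAP and TEAD factors, rose by 3.02 in rTRS, 2.56 in shRybp, 2.25 in shWdr5, 0.94 in Rybp-/-, 0.81 in TF-AA and 0.18 in phase disruption cells. Amotl2, which encodes a junction protein that binds YAP, rose by 2.46 in rTRS, 1.61 in shWdr5 and 1.49 in shRybp cells and fell in TF-AA (-0.40), phase disruption (-0.31) and Rybp-/- cells (-0.19). Yap1 itself stayed within -0.28 and 0.25 and Stk4, a Hippo kinase gene, within -0.50 and 0.06 across the 7 comparisons. Among 18 paralogs of the members, Tead3 rose by 2.39 in rTRS and by 1.27 in both shRybp and shWdr5 cells, where Tead4 moved by 0.37, 0.30 and -0.26, and Gata4 rose by 1.39 in shRybp and 1.58 in shWdr5 cells. Cdx1 rose by 2.37 in Rybp-/- cells and fell by 1.5 on the log2 scale in shWdr5 cells, and Elf3 rose in 5 comparisons (0.30 to 1.13) and fell in shWdr5 cells (-0.42). Over the paralog list 7 of 13 rose and 1 fell in shRybp, 7 of 13 and 1 in Rybp-/-, 7 of 12 and 3 in shWdr5, 6 of 12 and 0 in rTRS, 5 of 12 and 1 in phase disruption, 0 of 11 and 2 in TF-AA and 1 of 13 and 0 in J1 cells.

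Markers of other cell states moved along with the members in some tables, and their part in the results was not tested. In rTRS cells 8 of 10 pluripotency markers fell and 0 rose, Zfp42 by 1.68 on the log2 scale and Pou5f1 by 0.58, and the summed level of the list went from 5303 to 5463 CPM without DOX to 3466 to 3657 CPM with DOX. In shRybp cells 4 fell and 3 rose, in shWdr5 cells 6 fell and 3 rose, in Rybp-/- cells 1 fell and 7 rose, in phase disruption cells 2 fell and 3 rose, in TF-AA cells 1 fell and 3 rose, and in J1 cells 0 fell and 1 rose. Of all genes tested 20.4% fell and 23% rose in rTRS cells and 26% fell and 26.8% rose in shRybp cells, so the shRybp counts lie near those shares. Pou5f1 fell in phase disruption (-0.48), shRybp (-0.66) and shWdr5 cells (-0.73), Nanog rose in Rybp-/- and phase disruption cells (0.48 in both) and Tfcp2l1 fell in shRybp cells (-0.74). Surface ectoderm markers rose in 8 of 8 tested cases in shRybp cells, led by Krt18 (3.03) and Krt8 (1.85), with a summed 365 to 387 CPM against 174 to 183 CPM in shEV. In rTRS cells 4 of 7 rose and 0 fell, among them Krt8 (2.71), Krt18 (2.80), Epcam (0.73) and Grhl2 (0.97), with a summed 1152 to 1226 CPM against 323 to 345 CPM. Krt8 and Krt18 are keratins of the trophectoderm as well and stand in both lists. Trp63, which defines stratified epithelium, was at 0 in shEV, shRybp, WT ESC, WT.RYBP, NTC and both Tet-on groups, and no gene of the list was at 0 in the rTRS libraries given DOX. Of the remaining comparisons, 4 of 8 rose and 2 fell in Rybp-/-, 3 of 7 and 2 in shWdr5, 3 of 6 and 2 in TF-AA, 4 of 7 and 2 in phase disruption and 2 of 6 and 0 in J1 cells.

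Primitive endoderm markers rose in 7 of 10 cases and fell in 1 in shRybp cells, where 26.8% of all genes tested rose and 26% fell. Their summed level was 233 to 245 CPM against 110 CPM. Of this list 5 of 10 rose and 2 fell in shWdr5, 5 of 10 and 0 in Rybp-/-, 4 of 7 and 0 in TF-AA, 3 of 8 and 0 in phase disruption, 3 of 9 and 2 in rTRS and 0 of 7 and 1 in J1 cells. Col4a1, a basement membrane collagen gene, rose by 1.90 in shRybp and 1.76 in shWdr5 cells, Dab2 by 1.94 in rTRS cells, where Lama1 (-0.77) and Sox7 (-4.86) fell. Mesoderm markers gave 1 rise or none in 6 of the tables and at most 3 falls. In rTRS cells 2 of 7 rose, T (4.34) and Eomes (1.47), which is also a trophoblast stem cell gene, while Bmp4 fell (-1.09) and Kdr was not called (-1.23).

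Fibroblast markers summed to 488 to 619 CPM in the WT.RYBP and phase disruption libraries and to 5.83 to 169 CPM in the other tables. In phase disruption cells 5 of 10 fell and 0 rose, among them Col1a2 (-0.48), while Hand1 rose 6.41-fold. Conversely 9 of 10 rose and 0 fell in Rybp-/- cells, among them Acta2 (1.20), Thy1 (1.12) and Col1a1 (0.92), with a summed 161 to 169 CPM against 77.9 to 79.9 CPM in Rybp+/+. Of all genes tested in Rybp-/- cells, 22.8% rose and 22.7% fell. Elsewhere 4 of 4 tested rose and 0 fell in shRybp, 3 of 3 and 0 in TF-AA, 2 of 4 and 1 in rTRS and 1 of 3 and 1 in shWdr5 cells, and neither of the 2 tested in Tet-on RYBP cells was called by edgeR. The other genes of the list of 10 lay below the low-count filter in these tables. Summed levels were low, 18.7 to 18.9 CPM in shEV and 31.7 to 32.7 CPM in shRybp libraries. They were 11.1 to 11.8 CPM in WT ESC and 24.2 to 25.1 CPM in TF-AA libraries. The collagen-binding genes Dcn and Lum were at 0 in both shEV and shRybp libraries.

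At the chromatin level 7 of the 8 members carried RING1B at a transcription start site (TSS), in each of the 4 RING1B lists. A peak counted when it overlapped the 2500 bp on either side of an annotated TSS by at least 1 bp. Of 22380 protein-coding genes, 45.9% had such a peak in shEV cells, 41.6% in shStat3 cells, 54.7% in Tet.Rybp.Stat3 cells without DOX and 41.9% with DOX. Elf5 had no RING1B peak in any list. RING1B peaks were called as broad regions and the others as narrow ones. The peak lists come from merged replicates or 1 library, so all values here are descriptions with no test.

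RING1B peaks at 6 of these members were broad domains. In uninduced Tet.Rybp.Stat3 cells the domain at Gata3 was 26610 bp wide (chr2:9792905-9819514, mm9), that at Tfap2a 19084 bp, at Cdx2 18864 bp (chr5:148110335-148129198) and at Gata2 16344 bp. Hand1 had 9316 bp (chr11:57639533-57648848) and Tfap2c 7854 bp, whereas the median RING1B peak of this list was 932 bp wide. By width these 6 ranked from the 98.25th to the 99.94th percentile of the list and by fold enrichment, from 33.3 to 53.9, from the 93.93rd to the 98.62nd. Tead4 was the weakest, with 2235 bp and a fold enrichment of 16.0 (82.64th and 84.45th percentile). In shEV cells the Tead4 peak reached 4.57-fold and in shStat3 cells 19.5-fold. In Tet.Rybp.Stat3 cells without DOX, RING1B peaks covered 76.6% of the Cdx2 gene with 10000 bp on each side, and 75.2% of that of Tfap2a.

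**Figure D3:**
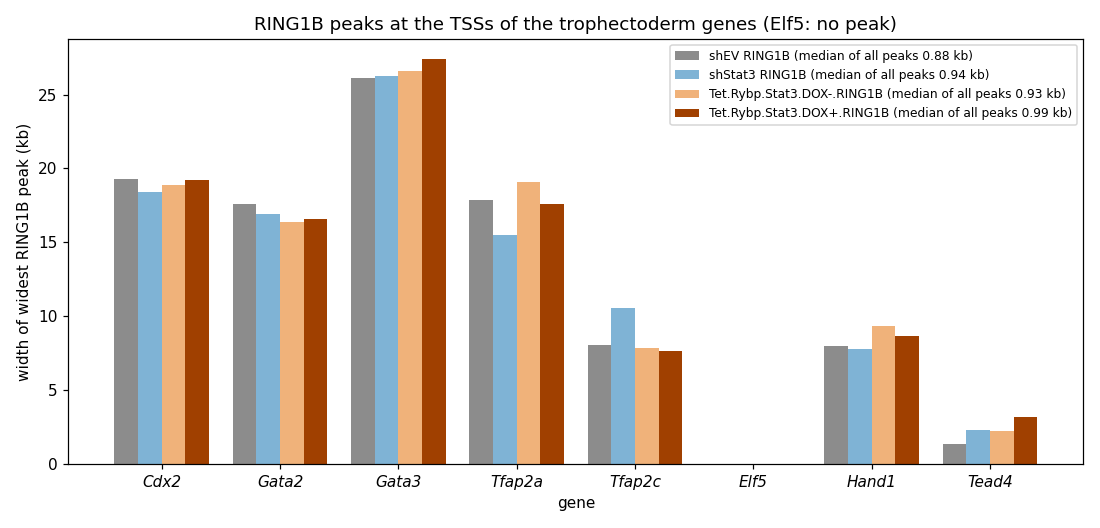
Width in kb (vertical axis) of the widest RING1B peak at a TSS of each gene (horizontal axis) in 4 peak lists, 1 bar a list. The bar for Gata3 without DOX reaches 26610 bp, and Elf5 has no bar because no RING1B peak was called there.

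RING1B was lower at all 7 of these members after DOX, and so it was at most genes. The fold enrichment went from 36.7 to 25.9 at Cdx2, from 44.8 to 33.7 at Gata3, from 53.9 to 36.7 at Tfap2a, from 51.9 to 43.0 at Hand1, from 40.2 to 32.6 at Gata2, from 33.3 to 23.1 at Tfap2c and from 16.0 to 14.8 at Tead4. The median ratio over the 7 members was 0.75, against 0.73 over all 9257 genes with a peak in both lists, of which 87.8% were lower. The peak was wider with DOX at Tead4 (2235 and 3163 bp), Cdx2 (18864 and 19232 bp), Gata2 and Gata3 (26610 and 27397 bp), and narrower at Tfap2a (19084 and 17577 bp), Hand1 (9316 and 8631 bp) and Tfap2c. After Stat3 knockdown 4 of 7 members were lower, against 48.7% of 8571 genes, and the median ratio was 0.97.

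H3K4me3, the mark of active and poised promoters, was called at the same 7 members in Rybp+/+ and Rybp-/- cells, against 67.8% and 67.9% of protein-coding genes. The highest fold enrichment at a TSS was 50.4 at Tfap2c, 35.6 at Tead4, 32.9 at Cdx2, 28.2 at Tfap2a, 24.6 at Gata2, 17.9 at Gata3 and 15.3 at Hand1 in Rybp+/+ cells. The Rybp-/- values were 46.0, 54.4, 36.3, 20.3, 32.0, 21.4 and 26.3 in the same order of genes. Elf5 had no H3K4me3 peak. Cdx2, Gata2, Gata3, Tfap2a and Hand1 thus carried both RING1B and H3K4me3, measured in different lines, while their RNA stayed at or below 2.28 RPKM in the control group of every table. Tfap2c and Tead4 carried both as well, with control means of up to 32.4 and 10.4 RPKM. Carrying both therefore did not set the low members apart from the expressed ones.

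**Figure D4:**
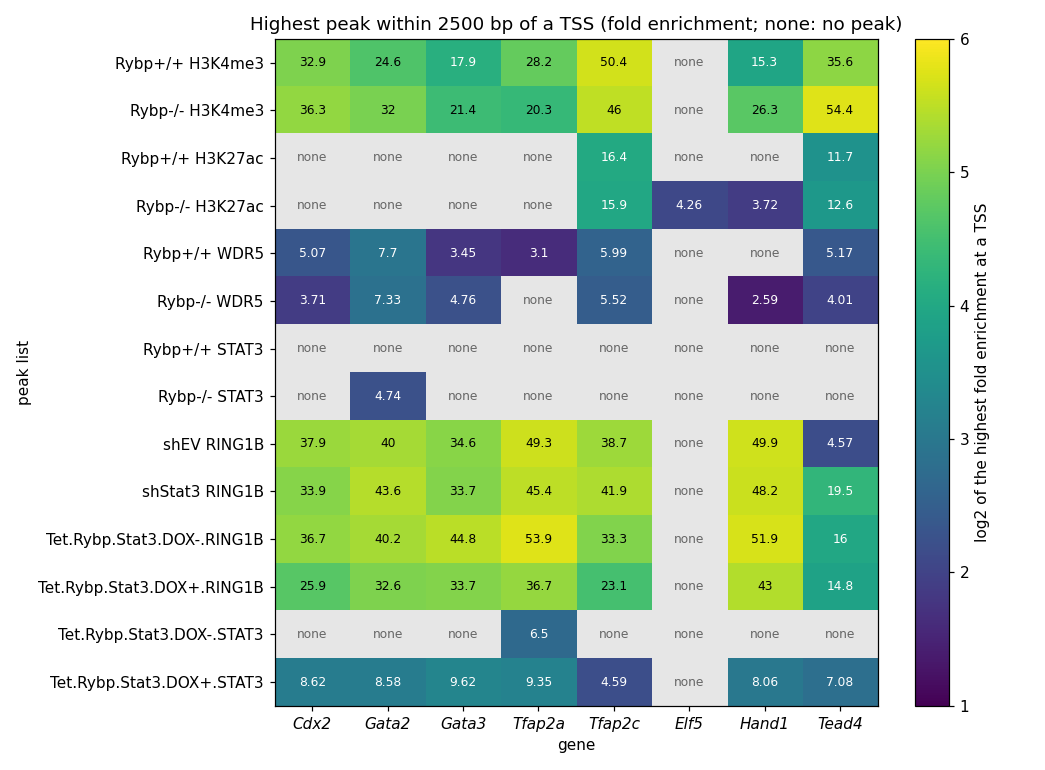
Highest fold enrichment of a peak within 2500 bp of a TSS, for each peak list (rows) and gene (columns), with colour on a log2 scale and the linear value printed; none marks no peak. Elf5 has 1 peak, H3K27ac in Rybp-/- cells at 4.26-fold.

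H3K27ac, the acetylation of active enhancers and promoters, was present at the TSS of Tfap2c and Tead4 alone among the members in Rybp+/+ cells, 2 of 8 against 51.6% of protein-coding genes. In Rybp-/- cells peaks at Elf5 and Hand1 were added, 4 of 8 against 54.8%. The Elf5 peak (chr2:103264151-103264777) lay over an internal TSS with a fold enrichment of 4.26, and the 3 Hand1 peaks reached 3.72, near the middle of their list (58.59th and 46.34th percentile). In Rybp-/- cells Elf5 held a total of 57 RNA reads against 9 in Rybp+/+ cells, and Hand1 was estimated 1.52-fold higher, a call that was not stable. Cdx2 (59 against 4 reads) and Gata3, also higher in Rybp-/- cells, had no H3K27ac peak at a TSS. Elf5 and Cdx2 passed the low-count filter only through the Rybp-/- libraries, and a link between RNA and H3K27ac was not tested. Over each gene with 10000 bp on either side, H3K27ac covered a longer stretch in Rybp-/- cells at 6 of 8 members, against 44.7% of 15128 genes. The covered share went from 3.1% to 11.3% at Cdx2, 4.5% to 14.4% at Gata2, 5.7% to 11.8% at Gata3, 0% to 9.5% at Hand1, 0.6% to 3.6% at Elf5 and 0.9% to 2.0% at Tfap2a, and from 39.8% to 39.5% at Tfap2c and 19.7% to 18.2% at Tead4. Over the whole lists the covered length was 73.1 Mb in Rybp+/+ and 69.6 Mb in Rybp-/- cells, with a mean fold enrichment of 7.00 and 6.25.

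Whether a WDR5 peak was called at a TSS differed between the lists at Tfap2a and Hand1. Of the 5 members with a peak in both lists, 4 had a lower fold enrichment in Rybp-/- cells, against 43.7% of 9945 genes. The median ratio was 0.92 over these members and 1.06 over those genes. In Rybp+/+ cells 6 of 8 members had one, against 46.8% of genes, with fold enrichment from 3.10 at Tfap2a to 7.70 at Gata2. In Rybp-/- cells 6 of 8 had one, against 49.2%: the peak at Tfap2a was not called, and a weak one was called at Hand1 (2.59-fold, 1.45th percentile). At a −log10 q of at least 5, 4 members had a WDR5 peak in each list. Cdx2 was among them in Rybp+/+ cells alone and Gata3 in Rybp-/- cells alone.

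**Figure D5:**
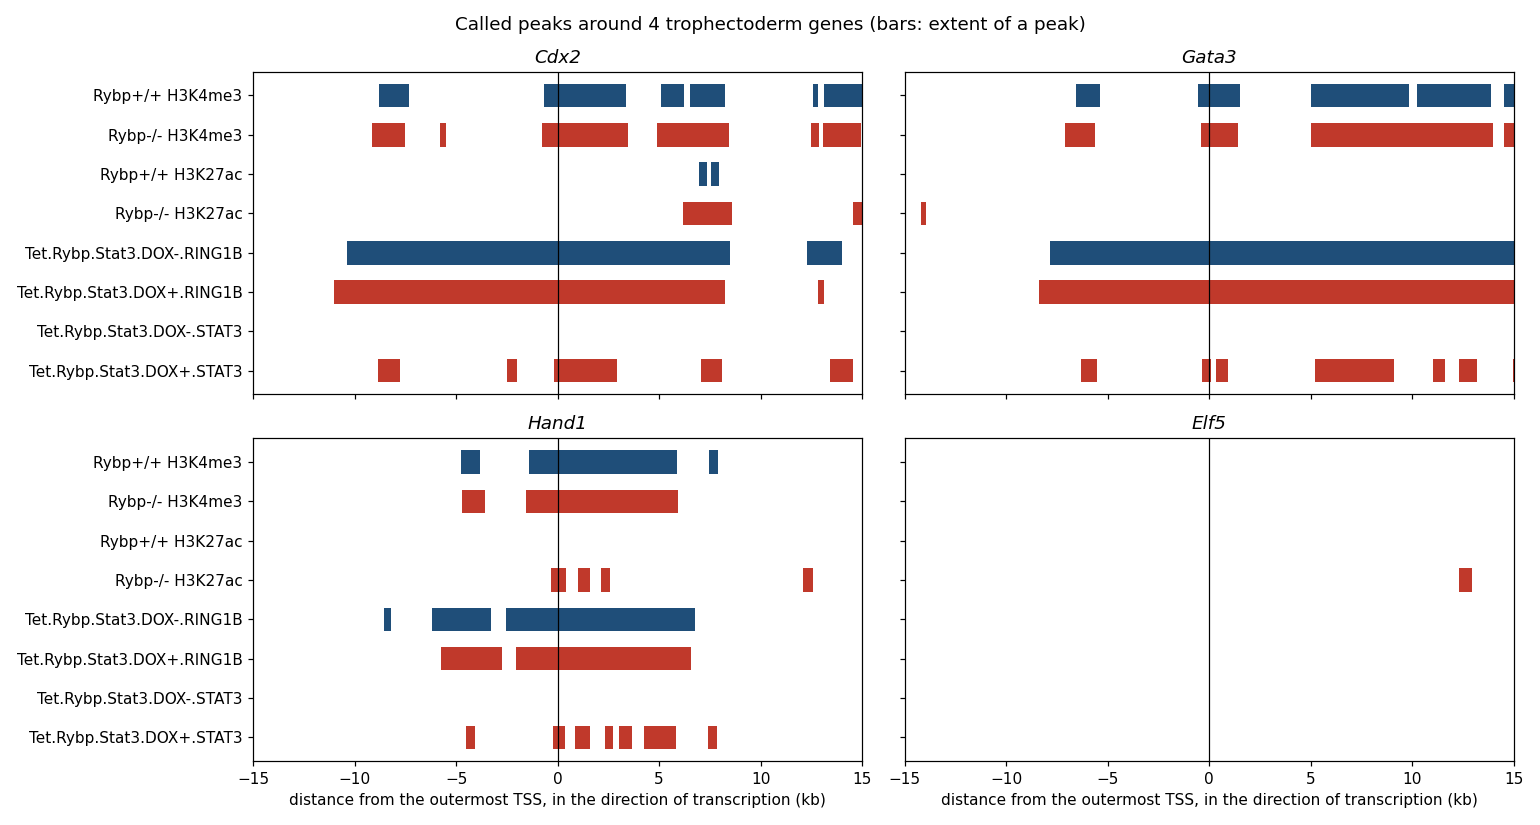
Extent of called peaks (bars) against distance in kb from the outermost TSS, in the direction of transcription, at Cdx2, Gata3, Hand1 and Elf5, for 8 peak lists (blue, control; red, perturbed). RING1B domains span the TSS of Cdx2, Gata3 and Hand1 in both DOX states, STAT3 bars appear there with DOX, and Elf5 shows 1 H3K27ac bar in Rybp-/- cells.

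STAT3 was the factor whose peaks at the members changed most between lists. Without DOX, 1 of 8 members had a STAT3 peak at a TSS (Tfap2a, 6.50-fold), against 9.03% of protein-coding genes. With DOX 7 of 8 had one, all but Elf5, against 57.5% of genes. The highest fold enrichment was 9.62 at Gata3, 9.35 at Tfap2a, 8.62 at Cdx2, 8.58 at Gata2, 8.06 at Hand1, 7.08 at Tead4 and 4.59 at Tfap2c. These 7 members held 28 STAT3 peaks, of which 27 overlapped a RING1B peak of the same cells with DOX. Over the whole lists 47.1% of the 30663 STAT3 peaks overlapped a RING1B peak and 89.3% of the 12864 RING1B peaks overlapped a STAT3 peak. The 28 member peaks were taken near TSSs that RING1B peaks span, whereas the whole list was not limited to TSSs. The 27 of 28 and the 47.1% are therefore not like for like. In R7.15 cells STAT3 peaks were at 0 of 8 members in Rybp+/+ (7.78% of genes) and at 1 of 8 in Rybp-/- cells (Gata2, 4.74-fold, against 6.56%).

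The sequences under 2 of the STAT3 peaks at Tfap2a are shown because this gene had the most such peaks, 8. Each is the plus strand of mm9 from 50 bases before to 50 bases after the summit, with the STAT half-site pair TTCNNNGAA in capitals. The first is the summit of the strongest peak (chr13:40826617-40826717), which holds no match, and the second that of the weakest (chr13:40827427-40827527), which holds 1.
Tfap2a strongest STAT3 summit: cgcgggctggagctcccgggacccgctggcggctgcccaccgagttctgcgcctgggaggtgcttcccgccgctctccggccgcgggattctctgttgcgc
Tfap2a weakest STAT3 summit: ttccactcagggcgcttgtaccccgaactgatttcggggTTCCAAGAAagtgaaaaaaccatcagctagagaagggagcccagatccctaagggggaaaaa
That was the sole match among the 28 summits at the members. The palindromic motif, which reads alike on both strands, was found at 2.12% of all 30663 summits with DOX, at 1.81% of the 2816 without DOX, at 2.33% in Rybp+/+ and at 1.56% in Rybp-/- cells.

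RefSeq promoters (GRCm38.p6) matched 5 members, Cdx2, Gata2, Gata3, Tfap2a and Elf5, and not Tfap2c, Hand1 and Tead4. The stretch from 250 to 51 bases before the start, 200 bases in the direction of transcription, is shown for 3 of them, with each CpG in capitals because CpG-rich DNA is the usual site of Polycomb in ESCs.
Cdx2, chr5:147307300-147307499, minus strand: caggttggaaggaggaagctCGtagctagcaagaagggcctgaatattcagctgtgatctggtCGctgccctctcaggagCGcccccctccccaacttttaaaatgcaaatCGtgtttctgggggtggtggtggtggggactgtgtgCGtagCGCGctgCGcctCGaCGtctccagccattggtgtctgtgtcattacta
Gata2, inner start, chr6:88198414-88198613, plus strand: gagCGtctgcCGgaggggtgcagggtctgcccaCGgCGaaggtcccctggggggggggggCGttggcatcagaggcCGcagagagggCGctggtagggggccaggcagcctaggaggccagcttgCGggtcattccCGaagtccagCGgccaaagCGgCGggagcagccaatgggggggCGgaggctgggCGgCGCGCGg
Elf5, inner start, chr2:103423818-103424017, plus strand: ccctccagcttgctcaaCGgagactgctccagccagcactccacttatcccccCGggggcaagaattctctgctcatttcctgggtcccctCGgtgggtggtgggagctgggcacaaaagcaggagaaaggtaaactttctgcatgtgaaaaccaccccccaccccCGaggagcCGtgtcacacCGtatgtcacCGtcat
The Elf5 stretch runs into the H3K27ac peak of Rybp-/- cells in mm9 (chr2:103263975-103264174), and the Gata2 stretch (chr6:88148408-88148607) lies within WDR5 and STAT3 peaks. These held 10, 17 and 7 CpGs, and 29.3%, 14% and 38.3% of the 32851 promoters of the table held at least as many. The outer Elf5 promoter held 2 CpGs (75.4% held as many), the Gata3 promoter 13 and the outer Gata2 promoter 13 (22.1%), and both Tfap2a promoters 8 (35%). Some of these windows lie in annotated exons of this or another gene. An exon covered 200 of the 200 bases of the outer Elf5 and the Gata3 windows, and 175 and 24 bases of the Tfap2a windows. The median of all promoters was 4. None of the 8 windows of the members held TTCNNNGAA, which 5.76% of all windows did.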

How the data were processed

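RNA libraries and ChIP-seq peak lists of mouse ESCs were analysed. The authors deposited raw read counts per gene (Trim Galore, STAR and HTSeq on mm9, per the submitters' processing notes) in 7 tables and peak lists in MACS2 format with a fold enrichment ratio and −log10 q for each peak, made from merged replicates or from 1 library. The steps behind the RING1B and Tet.Rybp.Stat3 lists are not given in the sources used here. Rows that name no gene were left out; reads in no feature made up 4.69 to 9.65% of reads where listed. A column named S5-DOX_R2 was taken as rTRS DOX replicate 2, NTC columns of the Tet.RYBP table as vehicle and EV as shEV. The shEV columns of both knockdown tables hold the same libraries, at 50.6 to 50.9% of the reads in the shWdr5 table.

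Each table was fitted alone in edgeR 4.0.16 (R 4.3.3): filterByExpr, TMM, glmQLFit and glmQLFTest without a block, with Benjamini-Hochberg adjustment over all genes tested. DESeq2 1.42.0, RLE scaling, no filter, a replicate block, a log2 fold change of at least 1 and leaving out each library were alternatives. The fits were tested on simulated data. Peaks were placed on GENCODE vM1 (NCBIM37, which is mm9) with Python 3.11.15 and bedtools 2.31.1. Symbols came from GENCODE and RefSeq tables, in which all listed genes matched. Named genes were the 8 members, Rybp, Wdr5 and Stat3, the 4 genes of each other list called in most comparisons, and for each member tested in all 7 tables the 2 genes most alike. Members and lists were chosen with earlier results of these data known. Depth limits low genes: intervals cover counting error only, and the floor of 3 counts that of the control alone.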

Additional observations from a re-analysis of the deposited data

How the results depend on the processing

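The count of members called changed by more than 1.5 times in few settings. Requiring a log2 fold change of at least 1 left 3 of 6 members called in Rybp-/-, 3 of 6 in shWdr5, 3 of 6 in phase disruption and 1 of 2 in Tet-on RYBP cells, since this threshold removes smaller changes by its construction. The 3 left in Rybp-/- cells were Cdx2, Elf5 and Gata3. Of these, Cdx2 and Elf5 had passed the low-count filter only through the Rybp-/- libraries and had to differ, so their calls are no support. DESeq2 called 3 members in shWdr5 cells in place of 6; the cause was not tested. Leaving out 1 library gave 3 to 5 members in Rybp-/-, 5 to 6 in shRybp, 4 to 6 in shWdr5, 2 to 3 in TF-AA, 4 to 6 in phase disruption, 2 in each case in Tet-on RYBP and 5 to 6 in rTRS cells. RLE scaling and the replicate block left each count as it was (6 in Rybp-/-, 6 in shRybp, 6 in shWdr5, 3 in TF-AA, 6 in phase disruption, 2 in Tet-on RYBP and 6 in rTRS cells); the deviations of same-numbered libraries correlated at 0.48 in rTRS, 0.33 in TF-AA and between -0.05 and 0.11 in the other tables. Neither the labels nor 2 pairs establish a pairing, and the block raised the calls over all genes from 7070 to 8559 in rTRS and from 4412 to 5525 in TF-AA cells. No value of a called member changed sign in any setting. STAT3 peaks at members rest on the window and threshold: without DOX the 1 member became 0 within 1000 bp or at an overlap of 500 bp, in Rybp-/- cells 1 became 0 within 1000 bp, at an overlap of 500 bp or at a −log10 q of 5, and in Rybp+/+ cells 0 became 1 within 5000 bp. Over all genes, DESeq2 called 2903 against 4412 in TF-AA and 2659 against 4814 in phase disruption cells, and leaving out 1 library gave from 406 to 1566 against 899 in Tet-on RYBP and from 2724 to 4767 in TF-AA cells. Each group has 2 libraries, and members with few reads (Elf5 in every table, Cdx2, Gata3 and Hand1 in some) are limited by depth.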
